A study of Mus musculus with 5 samples.

Results

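The T cell receptor beta variable (Trbv) genes encode the variable region of the receptor β chain. For its β chain, a T cell with an αβ receptor joins 1 of them to a diversity and a joining (Trbj) segment. The product is spliced to a constant gene, Trbc1 or Trbc2. A Trbv transcript can thus mark the receptor of a cell, and all descendants of the cell share it. Cells with more than 1 Trbv gene are described below. Every gene whose symbol starts with Trbv was taken, which gave 35 of the 32285 features listed for the T cell libraries. Of the 35, 22 are annotated as variable genes and 13 as pseudogenes. Usage below is the share of T cells with a unique molecular identifier (UMI) of exactly 1 Trbv gene that carried the gene in question.

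The T cells came from 4T1 tumors, a murine line of triple negative mammary cancer that was grown in the mammary fat pad of female BALB/c mice that were 12 weeks old per the labels. All mice received doxorubicin (DOX) into the tail vein, as 3 doses of 5 mg/kg given at intervals of 3 days. One group was labelled sensitive and the other resistant to DOX, and no untreated mice were among the T cell samples. T cells of 3 tumors were pooled per library after depletion of other cells with a pan T cell kit and of CD90.1 cells with beads, and each group had 1 library of the 5 in the series. Tumors within a pool, and therefore mice, could not be separated, so response group, pool and library cannot be told apart and no test between groups was possible. Brackets give 95% intervals, Clopper-Pearson for shares, which cover counting error only. For a count of 0, the limit given is the share that 3 counts would make, except where a Clopper-Pearson bound is named.

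The sensitive library held 3949 barcodes and 31690845 UMIs, and the resistant library 6116 barcodes and 35908799 UMIs. Barcodes with over 10% mitochondrial UMIs were left out and amounted to 5.90% of the barcodes from sensitive and 45.7% of those from resistant tumors. Cells with at least 500 genes and at least 1 UMI of Cd3d, Cd3e or Cd3g, the CD3 chains of the receptor complex, numbered 2128 (median 4087 UMIs) and 2079 (median 4781 UMIs) and are called T cells below. All 7 T cell markers listed were detected in each library. The γδ T cell markers summed to 199 CPM (UMIs scaled to a common total) in T cells from sensitive and 43.4 CPM in those from resistant tumors, the neutrophil markers to 536 and 1271 CPM and the fibroblast markers to 2901 and 3160 CPM, and their part in the results was not tested except where cells were left out below. The libraries shared 31 barcodes, 10 of them among T cells.

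The locus lies on chromosome 6 (GRCm38/mm10), where all the genes except Trbv31 are on the plus strand. Trbv1 (chr6:40891229-40891885) lies at one end, and Trbv31 (chr6:41557691-41558452, ENSMUSG00000076499) at the other, on the minus strand beyond the constant genes. The end of the coding sequence is shown for the 3 Trbv13 genes, which were the most used family, for Trbv14, Trbv16, Trbv19 and Trbv31, whose usage intervals did not overlap between the libraries, and for Trbv12-2, which was mostly seen as an additional gene in cells of another Trbv gene. These are the last 48 coding bases, 5′ to 3′ on the coding strand, in the GENCODE M21 annotation of the C57BL/6 reference and not in BALB/c, and the capitals mark the codon of the conserved cysteine that precedes the antigen-contacting hypervariable loop (CDR3).
Trbv12-2: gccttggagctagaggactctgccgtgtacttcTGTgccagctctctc
Trbv13-1: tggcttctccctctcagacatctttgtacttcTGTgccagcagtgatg
Trbv13-2: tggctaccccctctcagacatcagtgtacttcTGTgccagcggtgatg
Trbv13-3: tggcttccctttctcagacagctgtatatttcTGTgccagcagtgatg
Trbv14: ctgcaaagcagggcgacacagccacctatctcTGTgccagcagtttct
Trbv16: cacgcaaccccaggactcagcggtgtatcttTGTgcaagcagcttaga
Trbv19: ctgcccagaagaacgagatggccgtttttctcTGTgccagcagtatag
Trbv31: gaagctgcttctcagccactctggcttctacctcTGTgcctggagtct

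All 22 variable genes held this cysteine codon. Over their whole coding sequences the 231 pairs of genes were 48.8% to 90.6% identical, with a median of 56.5%, and 4 pairs reached 80%. These were Trbv13-2 with Trbv13-3 (90.6%), Trbv12-1 with Trbv12-2 (88.2%), Trbv13-1 with Trbv13-2 (87.9%) and Trbv13-1 with Trbv13-3 (85.3%). Reads from such close copies can be split or lost in counting, so values of the separate Trbv12 and Trbv13 genes are uncertain.

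At least 1 UMI was found in T cells for 24 of the 35 genes, that is for all 22 variable genes and for the pseudogenes Trbv22 and Trbv24. The other 11 pseudogenes had no UMI in any T cell of either library. Trbv24 was seen in 23 sensitive and 8 resistant T cells, and Trbv22 in 1 sensitive cell. In all, 19 genes were found in at least 20 T cells of the libraries together. Where a gene was detected, the mean number of its UMIs per positive cell ran from 1.12 (sensitive) and 1.06 (resistant) for Trbv5 to 17.2 and 14.1 for Trbv17 among the genes with at least 2% usage in either library. These UMIs were not scaled to length, and a gene with few UMIs per cell is missed in more of the cells that carry it, so usages of different genes are not compared as true frequencies.

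Most T cells had a Trbv UMI, and few of the cells that should lack the genes did. A Trbv UMI was present in 1601 of 2128 sensitive T cells (75.2% [73.3–77.1]) and in 1655 of 2079 resistant T cells (79.6% [77.8–81.3]). After each cell was thinned to 1000 UMIs, which left out 21 sensitive and 5 resistant cells, the order was the opposite, 51.8% [49.7–54.0] against 47.6% [45.5–49.8], a ratio of 1.09 [1.02–1.16] against 0.945 [0.915–0.977] without thinning. Which library had more T cells with a detected Trbv gene therefore depended on whether depth was made equal. Among stromal cells, defined by at least 10 collagen UMIs and no Cd3 or Ptprc UMI, 2 of 769 (0.260%) and 2 of 540 (0.370%) had a Trbv UMI at median depths of 13272 and 13806 UMIs. Of natural killer (NK) cells, with Ncr1 and no Cd3 UMI, 1 of 86 sensitive and 0 of 47 resistant cells had one, and 0 of 47 allows a share of up to 6.38%. A Trbc UMI, by contrast, was present in 76.7% and 59.6% of the NK cells, so that Trbc alone did not set T cells apart from NK cells here. In the whole-tumor libraries, cells with a Cd3 UMI gave a Trbv UMI in 3 of 89 cells labelled control, 0 of 8 labelled sensitive (Clopper-Pearson upper bound 36.9%) and 0 of 19 labelled resistant (Clopper-Pearson upper bound 17.6%), and these libraries were not used further.

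Usage was counted over 1144 sensitive and 1234 resistant T cells with exactly 1 Trbv gene. Trbv13-2 (chr6:41121396-41121832, ENSMUSG00000076469), known in the older nomenclature as Tcrb-V8.2, was the most used gene of each library. It was carried by 204 sensitive cells (17.8% [15.7–20.2]) and 217 resistant cells (17.6% [15.5–19.8]), a ratio of 1.01 [0.853–1.21]. Its relative Trbv13-1 was carried by 115 cells (10.1%) and 148 cells (12.0%), ratio 0.838 [0.666–1.05], and Trbv13-3 by 85 cells (7.43%) and 68 cells (5.51%), ratio 1.35 [0.990–1.84]. The intervals of these 3 ratios all included 1, but by the gene with most UMIs those of Trbv13-1 (0.749 [0.607–0.925]) and Trbv13-3 (1.34 [1.06–1.69]) did not. The ratio's interval also included 1 for Trbv1, carried by 110 cells (9.62%) and 113 cells (9.16%), for Trbv2, by 58 cells (5.07%) and 66 cells (5.35%), for Trbv4, by 78 cells (6.82%) and 107 cells (8.67%), and for Trbv5, by 33 cells (2.88%) and 23 cells (1.86%). The ratio of Trbv4 was 0.699 [0.530–0.922] by the gene with most UMIs.

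**Figure D1:**
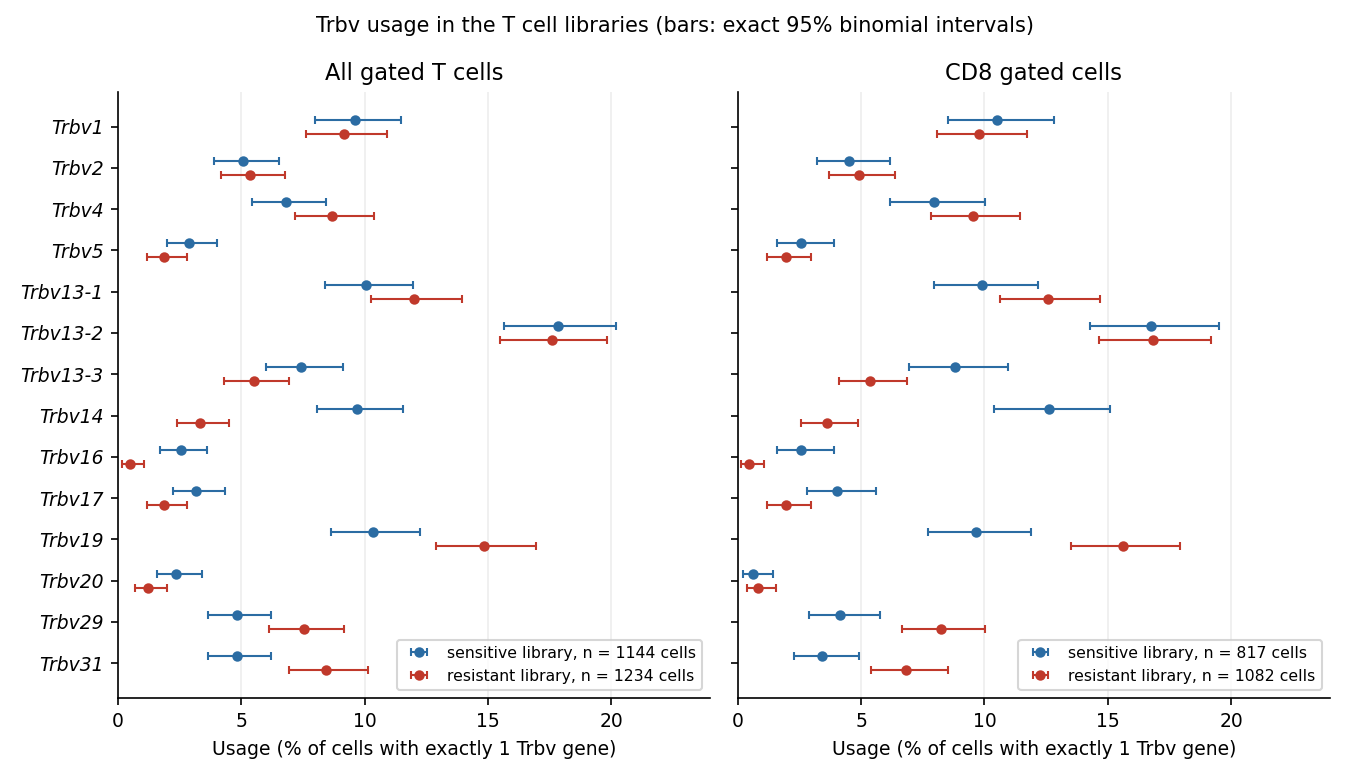
Trbv usage by library. Points give the percent of T cells with exactly 1 Trbv gene that carried each gene, for every gene with at least 2% usage in either library, and bars the Clopper-Pearson 95% interval. Trbv13-2 was the most used gene in each library (17.8% and 17.6%), and Trbv14 stood at 9.70% (sensitive) and 3.32% (resistant).

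A few genes differed between the libraries by more than counting error. Trbv14 (chr6:41135145-41135616, ENSMUSG00000076471; Tcrb-V13) was carried by 111 sensitive cells (9.70% [8.05–11.6]) and 41 resistant cells (3.32% [2.39–4.48]), a ratio of 2.92 [2.06–4.14]. Trbv16 (chr6:41151740-41152230; Tcrb-V11) was carried by 29 cells (2.53% [1.70–3.62]) and 6 cells (0.486% [0.179–1.06]), and its ratio of 5.21 was given no interval because a count was under 10. The ratio of Trbv16 fell to 2.64 when the mitochondrial limit was set at 5%. In the other direction, Trbv19 (chr6:41178375-41179048, ENSMUSG00000076475; Tcrb-V6) was carried by 118 sensitive cells (10.3% [8.61–12.2]) and 183 resistant cells (14.8% [12.9–16.9]), a ratio of 0.696 [0.560–0.864]. Trbv31 was carried by 55 cells (4.81% [3.64–6.21]) and 104 cells (8.43% [6.94–10.1]), a ratio of 0.570 [0.416–0.783]. Trbv14 and Trbv16 were thus higher in the sensitive library and Trbv19 and Trbv31 in the resistant library, and the intervals of each of these 4 genes did not overlap. How often the intervals of genes outside the Trbv family did not overlap was not computed.

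Of the 14 genes carried by at least 20 called cells together, 2 were at least 2-fold higher in the sensitive library (Trbv14 and Trbv16) and 0 in the resistant library, and the median ratio was 1.03. For the background, the share of T cells with a UMI was computed for every gene after thinning: 3.02% of 9283 genes were at least 2-fold higher in the sensitive library and 1.77% at least 2-fold higher in the other, with a median ratio of 1.09. By that same measure 2 of 15 Trbv genes, again Trbv14 and Trbv16, were at least 2-fold higher in the sensitive library and 0 of 15 in the resistant library, with a median ratio of 1.14. Of the remaining genes with at least 2% usage, Trbv29 was carried by 55 cells (4.81%) and 93 cells (7.54%), ratio 0.638 [0.462–0.882], Trbv17 by 36 cells (3.15%) and 23 cells (1.86%), ratio 1.69 [1.01–2.83], and Trbv20 by 27 cells (2.36%) and 15 cells (1.22%), ratio 1.94 [1.04–3.63]. For these 3 genes the interval of the ratio left out 1 while the intervals of the shares overlapped. By the gene with most UMIs the shares of Trbv29 did not overlap (3.99% [3.07–5.09] and 7.02% [5.82–8.39]). To turn one library's usage into the other's, 15.8% of its called cells would have to change gene. With no limit on mitochondrial UMIs that distance was 15.0%, and the Trbv14 ratio was 2.64.

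**Figure D2:**
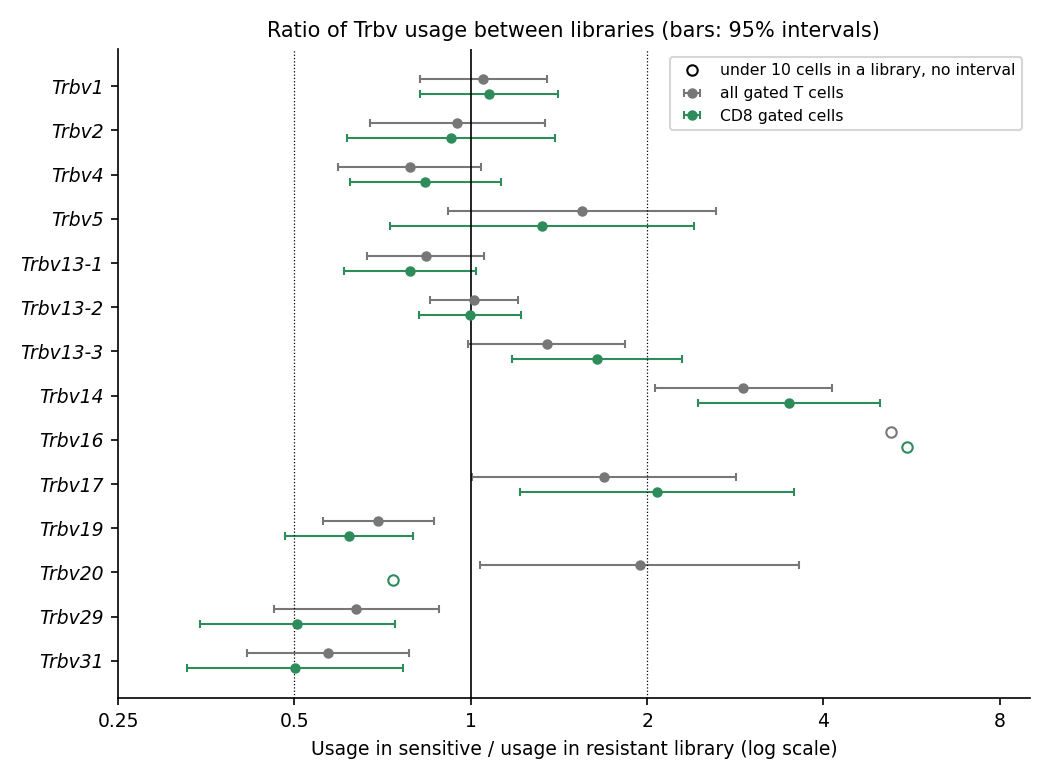
Ratio of Trbv usage, sensitive over resistant library, on a log axis, in all T cells and in CD8 cells, with log-scale 95% intervals where each count was at least 10. Trbv14 lay farthest above 1 among genes with an interval (2.92 in all T cells, 3.50 in CD8 cells), and Trbv31 lay lowest (0.570 and 0.501).

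Unevenness of usage was described with the inverse Simpson index, the number of equally used genes that would give the same chance that 2 cells share a gene. It was 11.0 [10.3–11.7] for sensitive and 9.69 [9.17–10.2] for resistant tumors, and the intervals did not overlap. To reach 50% of called cells, the 5 most used genes were needed in the sensitive library and the 4 most used in the resistant library. With each cell assigned to the gene with most UMIs, the index was 10.3 [9.79–10.9] and 9.86 [9.36–10.4], with overlapping intervals. Within CD8 cells it was 9.57 and 9.72, in the opposite order, and 4 genes were needed to reach 50% in each library. A difference in unevenness between the libraries therefore did not hold under that call. Cells from few clones raise unevenness, and clones could not be counted because the 3′ libraries do not read the joined CDR3.

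BALB/c mice carry endogenous mammary tumor virus superantigens, which are known to delete developing T cells with certain β chains. The 5 genes of that class are Trbv12-1, Trbv12-2, Trbv15, Trbv16 and Trbv26, and few cells carried one of them alone. The list was carried by 39 called cells of sensitive tumors (3.41% [2.44–4.63]) and 23 of resistant tumors (1.86% [1.19–2.78]). Trbv16 accounted for 29 of those 39 and 6 of those 23 cells. Trbv12-1 was carried by 2 and 1 cells, Trbv12-2 by 5 and 9 cells, Trbv26 by 3 and 1 cells, and Trbv15 by 0 of 1144 sensitive cells, which allows a share of up to 0.262%, and by 6 resistant cells. Only Trbv16 of the 5 passed the minimum of 20 cells. Within CD8 cells the list stood at 3.18% and 1.66%. When a cell was counted under each gene it had a UMI of, the list stood at 14.3% and 10.8% of T cells with a Trbv UMI, since Trbv12-2 was found in 143 and 124 T cells and was alone in 3.50% and 7.26% of them. Trbv3, Trbv23, Trbv24 and Trbv30 made up the rest of the called cells, with 13, 1, 3 and 3 sensitive and 6, 0, 4 and 0 resistant cells.

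Over all T cells the Trbv genes together summed to 923 CPM for sensitive and 723 CPM for resistant tumors (ratio 1.28 [1.24–1.31]), while Trbc1 and Trbc2 together stood at 408 and 419 CPM, ratio 0.973 [0.937–1.01]. The median ratio of 10264 genes with at least 100 UMIs was 1.08, and relative to it the Trbv ratio was 1.18. The Trbv14 level was 152 CPM against 47.4 CPM (ratio 3.20 [2.93–3.51]) and the Trbv16 level 27.2 and 4.33 CPM (6.27 [4.75–8.40]). Trbv20 (18.1 and 5.99 CPM, 3.03 [2.34–3.94]), Trbv17 (92.0 and 48.9 CPM, 1.88 [1.71–2.07]) and Trbv13-3 (77.3 and 47.4 CPM, 1.63 [1.47–1.80]) were also higher in the sensitive library. Trbv29 (34.1 and 55.4 CPM, 0.616 [0.545–0.695]), Trbv4 (12.6 and 18.0 CPM, 0.696 [0.565–0.854]), Trbv31 (36.1 and 45.5 CPM, 0.794 [0.701–0.898]) and Trbv19 (82.9 and 103 CPM, 0.803 [0.740–0.871]) were lower. UMIs of a cell are not independent, so these intervals are narrower than the spread between cells. Fewer cells with a gene and less of its RNA per cell both lower a summed level, while usage counts cells alone.

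CD8 cells, with a Cd8a or Cd8b1 UMI and none of Cd4 or Foxp3, numbered 1379 among sensitive and 1714 among resistant T cells. CD4 cells, with Cd4 and neither Cd8 gene nor Foxp3, numbered 193 and 49, and Foxp3 cells, which had the regulatory T cell factor Foxp3 and no Cd8 UMI, 48 and 12. A Trbv UMI was present in 79.8% and 82.7% of CD8 cells, in 82.4% and 83.7% of CD4 cells and in 37 of 48 and 7 of 12 Foxp3 cells. The remaining 508 and 304 cells entered no gate, and 60.0% and 62.2% of them had a Trbv UMI.

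Within CD8 cells, 817 sensitive and 1082 resistant cells had exactly 1 Trbv gene. The differences between the libraries in Trbv14, Trbv16, Trbv17, Trbv19, Trbv29 and Trbv31 were also present there. That in Trbv20 was not, with 5 sensitive (0.612%) and 9 resistant CD8 cells (0.832%), a ratio of 0.736 without an interval. Trbv14 was carried by 103 sensitive CD8 cells (12.6% [10.4–15.1]) and 39 resistant CD8 cells (3.60% [2.58–4.89]), a ratio of 3.50 [2.45–5.00]. When each CD8 cell was instead assigned to the Trbv gene with most UMIs, Trbv14 was the most used gene of the sensitive library with 190 of 1076 cells (17.7%), against 77 of 1373 (5.61%) in the resistant library. Trbv16 was carried by 21 CD8 cells (2.57%) and 5 (0.462%), and Trbv13-3 by 72 (8.81%) and 58 (5.36%), ratio 1.64 [1.18–2.30]. Trbv17 was carried by 33 CD8 cells (4.04%) and 21 (1.94%), and its ratio of 2.08 [1.21–3.57] ranged from 1.57 to 2.24 over 14 alternatives, on either side of 2-fold. Trbv19 (79 cells, 9.67%, against 169 cells, 15.6%; 0.619 [0.482–0.796]), Trbv29 (34 cells, 4.16%, against 89 cells, 8.23%; 0.506 [0.344–0.743]) and Trbv31 (28 cells, 3.43%, against 74 cells, 6.84%; 0.501 [0.328–0.767]) were lower in the sensitive library. Trbv13-2 stood at 16.8% of CD8 cells in each library, and Trbv1, Trbv2, Trbv4, Trbv5 and Trbv13-1 had ratios of 0.789 to 1.32 whose intervals included 1. By the gene with most UMIs Trbv13-1 was lower in the sensitive library (7.90% [6.36–9.68] against 12.1% [10.4–13.9]), a ratio of 0.653 [0.509–0.838].

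Of the 13 genes carried by at least 20 called CD8 cells together, 3 were at least 2-fold higher in the sensitive library (Trbv14, Trbv16 and Trbv17) and 0 in the resistant library. By the gene with most UMIs, 2 (Trbv14 and Trbv16) were higher in the sensitive library and 1 (Trbv29) in the resistant library. Across all genes in CD8 cells, by share of cells after thinning, 2.87% of 8420 were at least 2-fold higher in the sensitive library and 2.1% at least 2-fold higher in the other, and by that measure 2 of 13 Trbv genes (Trbv14 and Trbv16) and 0 of 13 were. The intervals of 6 genes did not overlap between the libraries (Trbv13-3, Trbv14, Trbv16, Trbv19, Trbv29 and Trbv31). There were 7 by the gene with most UMIs, with Trbv13-1 added. The share of all genes with intervals apart was not computed, so these counts have no background to be set against. The distance between the usages of CD8 cells was 19.0%.

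**Figure D3:**
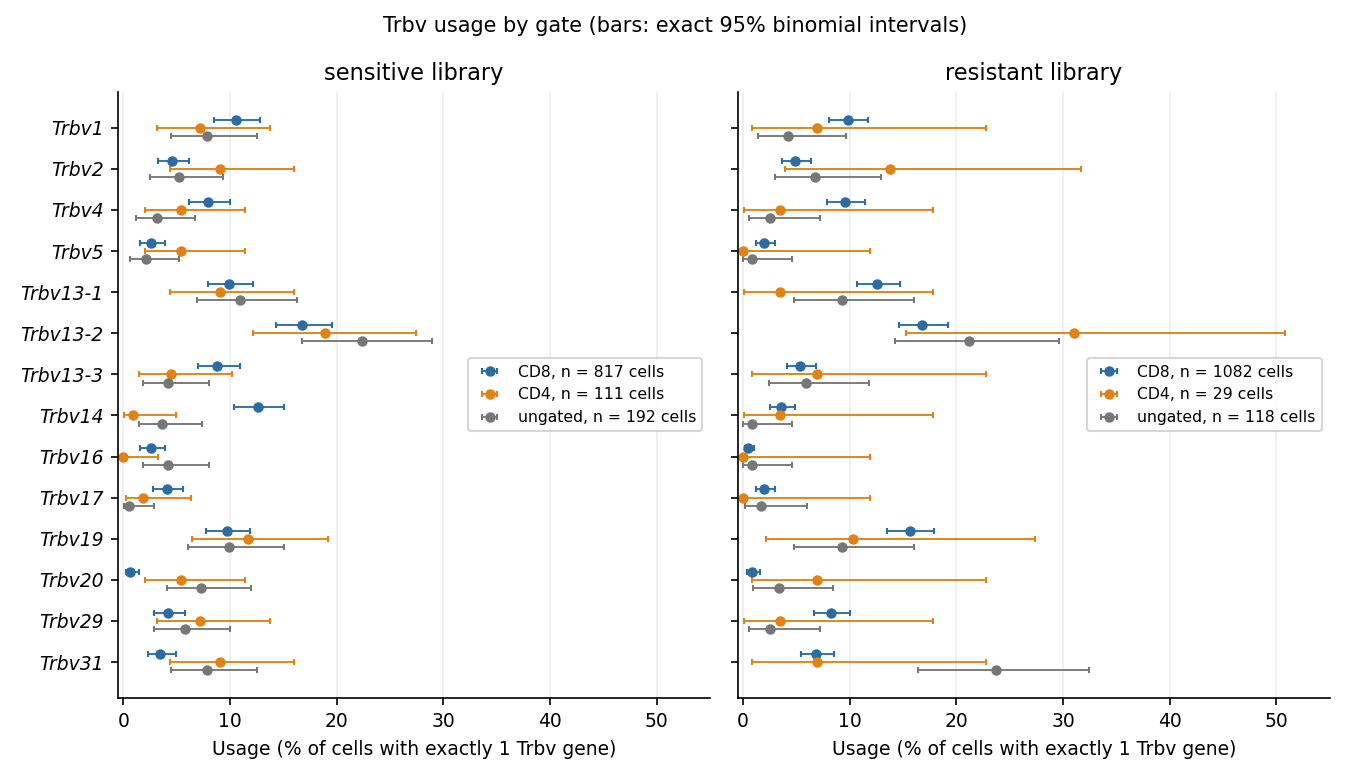
Trbv usage by library and gate. Points give the percent of called CD8, CD4 or ungated cells (exactly 1 Trbv gene) that carried each gene, 1 panel per library, and bars the Clopper-Pearson 95% interval. Trbv14 stood at 12.6% of CD8 and 0.901% of CD4 cells of the sensitive library, and Trbv31 was highest in ungated cells of the resistant library (23.7%).

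CD4 and CD8 cells of the sensitive library used the genes differently. Of the 111 called CD4 cells, 1 carried Trbv14 (0.901% [0.0228–4.92]), against 12.6% of CD8 cells, and 0 carried Trbv16, which allows a share of up to 2.70%. Trbv20 was carried by 6 CD4 cells (5.41% [2.01–11.4]) and 5 CD8 cells (0.612% [0.199–1.42]). Trbv31 was carried by 10 CD4 cells (9.01%), 2.63 [1.31–5.26] times the CD8 usage, and Trbv2 by 10 CD4 cells (9.01%), 1.99 [1.02–3.89] times the CD8 usage. Trbv13-2 was again the leading gene (21 cells, 18.9%), and Trbv19 was carried by 13 (11.7%). The distance between CD4 and CD8 usage was 28.0%. Counting error alone makes such a distance larger than 0, more so with few cells, and its expected size was not computed. The distances between the libraries have the same limit. The resistant library had 29 called CD4 cells, of which 9 carried Trbv13-2 (31.0% [15.3–50.8]) and 1 each Trbv14 and Trbv13-1, so that its CD4 usage had wide intervals.

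Of 24 called Foxp3 cells of the sensitive library, 7 carried Trbv19 (29.2% [12.6–51.1]) and 3 each Trbv13-1 and Trbv13-2, and the 5 called Foxp3 cells of the resistant library carried 5 different genes. In ungated cells, Trbv31 was carried by 15 of 192 sensitive cells (7.81% [4.44–12.6]) and 28 of 118 resistant cells (23.7% [16.4–32.4]), a ratio of 0.329 [0.184–0.590]. Trbv20 was carried by 14 (7.29%) and 4 ungated cells, Trbv14 by 7 and 1, and Trbv13-2 by 43 (22.4%) and 25 (21.2%). The Trbv31 usage of ungated cells of the resistant library lay above that of its CD8 cells (6.84% [5.41–8.51]), and the intervals did not overlap.

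T cells with a UMI of Trdc, the constant gene of the δ chain, numbered 125 (sensitive) and 33 (resistant). A Trbv UMI was present in 36.0% and 39.4% of them, against 75.2% and 79.6% of all T cells. Of T cells with a UMI of Trdv4 or Tcrg-V6, variable genes of γδ receptors, 29 of 104 sensitive (27.9% [19.5–37.5]) and 24 of 51 resistant cells (47.1% [32.9–61.5]) had a Trbv UMI, a ratio of 0.593 [0.388–0.906]. Among the Trdc-positive T cells of the sensitive library with exactly 1 Trbv gene, 16 of 30 carried Trbv19 (53.3% [34.3–71.7]), against 1 of 9 in the resistant library. Whether these cells were γδ T cells with β transcripts or αβ T cells with Trdc RNA was not resolved, so the share and the Trbv19 value cannot be assigned to either type. With all Trdc-positive cells left out, the usage ratio of Trbv19 was 0.616 in all T cells and 0.520 in CD8 cells, and that of Trbv14 was 3.00 and 3.64.

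More than 1 Trbv gene was detected in 457 sensitive T cells (21.5% [19.7–23.3]) and 421 resistant T cells (20.3% [18.5–22.0]), and after thinning in 5.22% [4.31–6.26] and 3.86% [3.07–4.78]. Exactly 2 genes were seen in 358 and 334 cells and more in 99 and 87. The commonest pairing was of Trbv12-2 with Trbv13-2, in 84 and 77 cells, which held 58.7% and 62.1% of all cells with a Trbv12-2 UMI. Trbv12-2 was alone in 3.50% of its sensitive cells. Trbv13-2 and Trbv14 were found together in 79 and 36 cells, 33.2% and 36.7% of the cells with Trbv14, and Trbv13-2 and Trbv13-3 in 50 and 44 cells. Identity of the coding sequences was 54.2% for Trbv12-2 with Trbv13-2 and 57.0% for Trbv13-2 with Trbv14, near the median of all pairs, while Trbv13-2 and Trbv13-3 were the closest pair.

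The order of the paired genes along the chromosome was examined after the pairs had been seen. Cells with exactly 2 Trbv genes were taken in which 1 gene had more UMIs (the leading gene) than the other (the following gene), 316 sensitive and 284 resistant cells. The following gene had a single UMI in 75.0% and 69.7% of them. Leaving aside pairs with Trbv31, which is on the other strand, the following gene lay upstream of the leading gene in 221 of the sensitive cells and downstream in 78, and in 178 and 85 of the resistant cells. The side depends on which genes are common, no expected value was computed, and these counts are a description. Cells led by Trbv14 were followed by Trbv13-2 in 46 sensitive and 16 resistant cells, and cells led by Trbv13-2 by Trbv12-2 in 42 and 37. Those led by Trbv13-3 were followed by Trbv13-2 in 26 and 22 cells. In the plot of leading against following gene these frequent pairs join genes that are close on the chromosome. Doublets were not removed, and removing the 112 sensitive and 159 resistant barcodes that scored highest as putative doublets is among the alternatives given at the end.

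**Figure D4:**
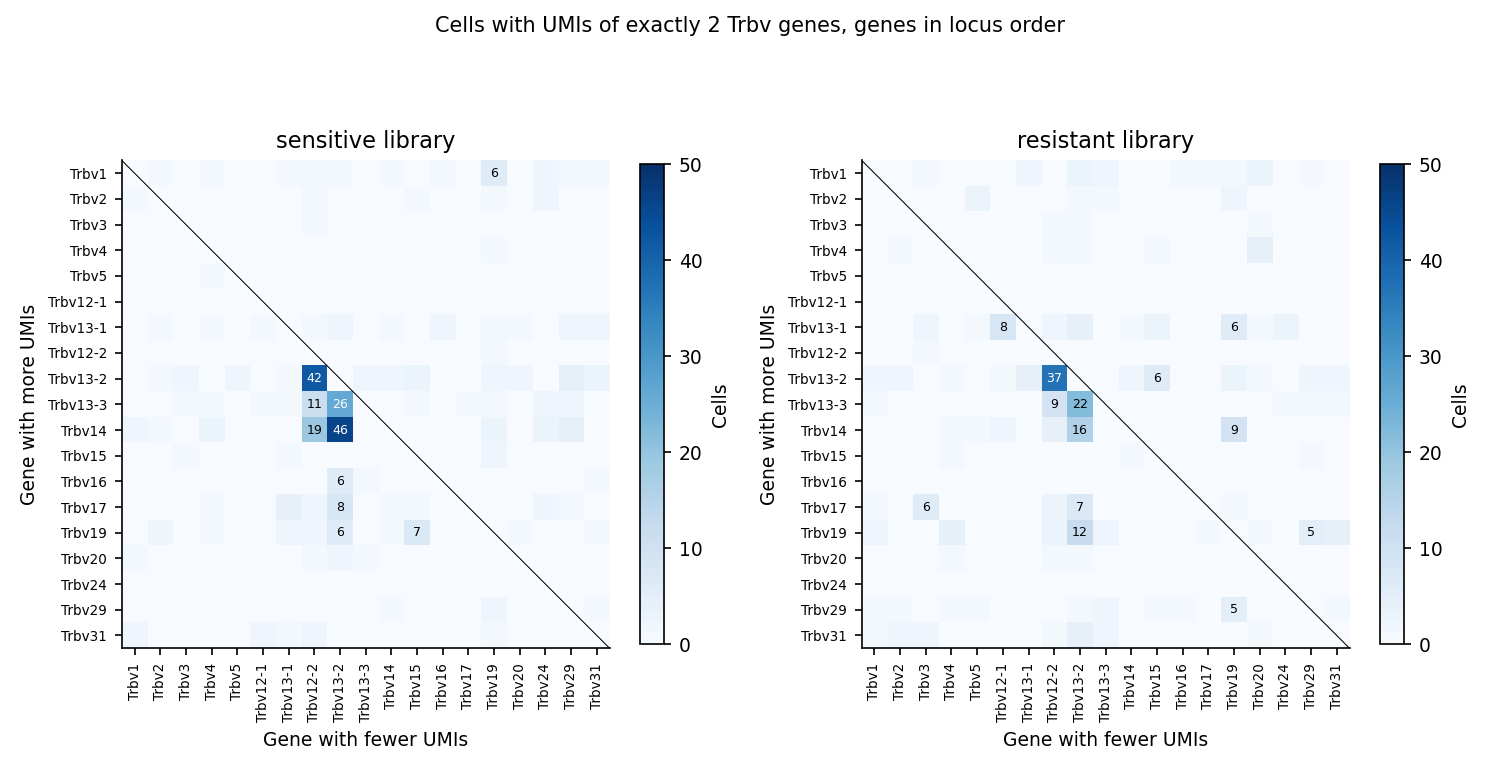
Leading and following Trbv gene in cells with exactly 2 Trbv genes, with genes in chromosomal order, color for the number of cells and the number printed from 5 cells up. Most counts lay on the side where the following gene is upstream of the leading gene, with 46 cells for Trbv14 followed by Trbv13-2 in the sensitive library and 37 for Trbv13-2 followed by Trbv12-2 in the resistant library.

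Cells of a Trbv gene were compared with all other called cells of the same library for the α chain variable (Trav), Trbj and constant genes they also held, for the most used genes of each library and for Trbv14. In the sensitive library, Trav4-2 was found in 40 of 204 Trbv13-2 cells (19.6% [14.4–25.7]) and in 1.60% of other cells, and Trav9-1 in 8.33% and 1.70%. Trav8d-1 was found in 28 of 115 Trbv13-1 cells (24.3% [16.8–33.2]) and in 3.40% of other cells, and Trbj1-3 in 13.0% and 3.50%. Trav4-3 was found in 18 of 111 Trbv14 cells (16.2% [9.90–24.4]) and in 1.84% of other cells. The leading Trav gene differed between these 3 Trbv genes, and none was found in over 25% of their cells. In Trbv19 cells the most frequent Trav gene, Trav6n-6, was found in 9 of 118 cells (7.63% [3.55–14.0]) and in 4.00% of other cells.

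In the resistant library, Trav3-3 was found in 46 of 183 Trbv19 cells (25.1%) and in 9.42% of other cells, Trav14-2 in 13.1% and 0.476%, and Trbj2-3 in 12.0% and 2.85%. Trav7-1 led in Trbv13-2 cells (24 of 217, 11.1% [7.22–16.0]; other cells 3.74%), and Trav16d-dv11 in Trbv13-1 cells (21 of 148, 14.2%; other cells 9.94%). Trav21-dv12 was the next most frequent in Trbv13-1 cells of each library, at 9.57% against 0.972% of other cells in the sensitive and 12.2% against 3.59% in the resistant. Among the 41 Trbv14 cells, 10 held Trav3-3 (24.4% [12.4–40.3]; other cells 11.3%) and 5 Trav5-4 (12.2%; other cells 0.754%). By the gene with most UMIs the leading partner of Trbv14 there was Trav5-4 (22 of 85 cells, 25.9%; other cells 1.32%), with Trav7-5 at 21.2% (other cells 1.39%) and Trav3-3 in 17 of the 85 cells (other cells 12.2%). By that call Trav16d-dv11 also came before Trav7-1 in Trbv13-2 cells of the resistant library, at 10.9% and 10.2% (other cells 12.1% and 4.07%). Any Trav gene was detected in 39.6% of the Trbv14 and 42.4% of the Trbv19 cells of the sensitive library, against 68.2% and 68.0% of other cells, and in 58.5% and 67.8% of those of the resistant library, against 71.5% and 71.6%. By the gene with most UMIs the share was 44.0% of Trbv14 cells (other cells 72.0%) and 51.9% of Trbv19 cells (other cells 69.9%) of the sensitive library, and 74.1% (other cells 73.8%) and 70.4% (other cells 74.4%) of the resistant library, so the lower share in Trbv14 cells of the resistant library did not hold under that call. Of the constant genes, Trbc2 was found in 80.2% of Trbv14 cells of the sensitive library (other cells 63.6%) and in 87.8% of those of the resistant library (other cells 66.2%). Trbc1 was found in 47.7% of the former (other cells 39.0%) and 26.8% of the latter (other cells 45.5%). Cells of one expanded clone share all their receptor genes and are not independent.

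Within CD8 cells, 27 genes of T cell state were compared between cells of each Trbv gene with at least 50 called cells and the remaining called CD8 cells of that library, as summed CPM. In the sensitive library the number of state genes at least 2-fold higher and lower was 1 and 7 for Trbv1, 4 and 6 for Trbv4, 0 and 12 for Trbv13-1, 2 and 3 for Trbv13-2, 1 and 4 for Trbv13-3, 5 and 6 for Trbv14 and 2 and 6 for Trbv19, out of 27 measured (26 for Trbv13-1). The lower counts of Trbv13-1 and Trbv19 include Gzmf at 0 UMIs and that of Trbv13-3 includes S1pr1 on 1 UMI, where no difference in the share of cells with a UMI was detectable at these cell numbers. Across all genes the share past 2-fold in either direction was 12.4% for Trbv1, 12% for Trbv4, 12.3% for Trbv13-1, 8.95% for Trbv13-2, 12.3% for Trbv13-3, 13.4% for Trbv14 and 12.2% for Trbv19. In the resistant library the counts out of 26 were 2 and 5 for Trbv1, 3 and 8 for Trbv2, 1 and 3 for Trbv4, 0 and 2 for Trbv13-1, 0 and 0 for Trbv13-2, 0 and 3 for Trbv13-3, 1 and 0 for Trbv19, 0 and 0 for Trbv29 and 0 and 4 for Trbv31. There the share across all genes was 11.4% for Trbv1, 15.2% for Trbv2, 9.81% for Trbv4, 8.02% for Trbv13-1, 7.6% for Trbv13-2, 14.4% for Trbv13-3, 8.78% for Trbv19, 11.5% for Trbv29 and 14.5% for Trbv31. The share of state genes was below the share across all genes for Trbv13-1 (7.69%), Trbv13-2 (0%), Trbv13-3 (11.5%), Trbv19 (3.85%) and Trbv29 (0%) of the resistant library. It was 46.2% for Trbv13-1, 40.7% for Trbv14 and 37.0% for Trbv4 of the sensitive library and 42.3% for Trbv2 of the resistant library.

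Gzmf, a granzyme of activated cytotoxic cells, was found in few cells, so its ratios rest on a small number of cells with many UMIs. It was 5.81 [4.82–6.99] times as high in Trbv4 CD8 cells of the sensitive library (394 against 67.9 CPM), where 4.62% of 65 cells and 1.73% of other cells had a UMI. In the resistant library it was 3.57 [3.23–3.94] times as high in Trbv4 cells (5.83% of cells against 5.62%) and 5.14 [4.62–5.72] times in Trbv2 cells (11.3% against 5.35%). The share of cells went against the low ratios in Trbv1 (0.127 times, but 2.33% of cells against 1.92%) and Trbv14 cells (0.129 times, but 2.91% against 1.82%) of the sensitive library and in Trbv13-3 cells of the resistant library (0.0736 times, but 6.90% against 5.57%). Ratio and share were both lower in Trbv13-2 cells of the sensitive library (0.233 times, or 0.368 without Trbv4 cells, and 0.730% against 2.21%). The same held in Trbv1 cells of the resistant library (0.0257 times, and 1.89% against 6.05%). These shares come from 86 Trbv1, 103 Trbv14 and 137 Trbv13-2 cells of the sensitive library and 58 Trbv13-3 and 106 Trbv1 cells of the resistant library. They too rest on few positive cells, so their direction is uncertain. No Gzmf UMI was found in the 81 Trbv13-1 and 79 Trbv19 cells of the sensitive library, and with 2.17% of other cells positive in each case a difference was not detectable at these numbers of cells. Gzma, a granzyme of effector cells, was low in the Trbv4 cells of each library, at 0.0447 times the other cells' level in the sensitive (38.1 against 853 CPM; 1.54% of cells against 9.84%) and 0.0420 times in the resistant library (59.7 against 1420 CPM; 3.88% of cells against 13.5%). It was also low in Trbv2 (0.0152), Trbv31 (0.224) and Trbv13-1 (0.436) cells of the resistant library. The Trbv2 value rested on 8 UMIs in 1.89% of 53 cells and was 0.0302 as a mean over cells. Gzma was low too in Trbv14 (0.284), Trbv19 (0.339) and Trbv1 (0.425) cells of the sensitive library. Even so, more of the Trbv19 (10.1% against 9.08%) and Trbv1 cells (10.5% against 9.03%) had a Gzma UMI than other cells. These values of the sensitive library are relative to a group that holds the Trbv13-2 cells, where Gzma was high. With Trbv13-2 cells left out they were 0.438 in Trbv14, 0.524 in Trbv19 and 0.661 in Trbv1 cells, the last 2 under 2-fold, and that of Trbv4 cells was 0.0671. The Gzma level of Trbv13-2 cells of the sensitive library was 4.83 times that of other cells, and 2.19 times as a mean over cells, with Gzma detected in 8.03% of them and in 9.41% of other cells. Gzmb was at 0.417 times in Trbv13-1 cells and Gzmk at 0.309 times in Trbv2 cells of the resistant library.

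Xcl1, a chemokine that attracts dendritic cells, was 7.33 [6.55–8.20] times as high in Trbv1 cells of the sensitive library (1321 against 180 CPM) with a UMI in 14.0% of them and 11.1% of other cells. It was at 0.160 times in Trbv13-3 (5.56% of cells against 11.9%), 0.198 in Trbv13-2 (9.49% against 11.8%) and 0.236 in Trbv19 cells (6.33% against 11.9%). Trbv1 cells held 541 of the Xcl1 UMIs against 727 in all remaining called cells, and with Trbv1 cells left out the ratios were 0.254, 0.316 and 0.377. Ifng, which encodes interferon gamma, was at 0.264 times in Trbv1 and 2.28 times in Trbv13-2 cells of the sensitive library. Ccl3, a chemokine of activated T cells, was at 0.411 times in Trbv1 and 0.191 times in Trbv13-1 cells of the sensitive library, and at 0.290 times in Trbv13-3 cells of the resistant library. Prf1, the gene of perforin, was at 0.181, 0.298 and 0.385 times in Trbv13-1, Trbv19 and Trbv13-3 cells of the sensitive library and at 0.306 times in Trbv13-3 cells of the resistant library. As a mean over cells the first of these, in Trbv13-1 cells, was 0.312. Trbv4 cells of the sensitive library went the other way, with 3.99 [3.51–4.53] times the Prf1 level (56.9% of cells against 33.4%), 3.48 [3.16–3.82] times the Ccl3 and 2.27 [1.74–2.93] times the Tox level of other cells. As means over cells these ratios were 2.25 for Prf1, 1.75 for Ccl3 and 2.22 for Tox. In Trbv4 cells of the resistant library the levels were 1.99, 1.88 and 1.56 times those of other cells, all under 2-fold.

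Among checkpoint and exhaustion genes, Havcr2 (TIM-3) was at 0.119 times in Trbv13-1 and 0.272 times in Trbv19 cells of the sensitive library and at 0.450 times in Trbv1 cells of the resistant library. Tox, a factor of exhausted T cells, was at 0.374, 0.338 and 0.476 times in Trbv13-1, Trbv13-3 and Trbv13-2 cells of the sensitive library. Pdcd1, which encodes PD-1, was at 0.464 times in Trbv1 cells of the resistant library, with a UMI in 37.7% of them and in 70.0% of other cells. Trbv14 CD8 cells of the sensitive library had 2.87 times the Havcr2, 2.27 times the Lag3 and Tox, 2.21 times the Prf1 and 2.08 times the Ccl3 level of other cells, and 0.149 times the Itgae, 0.307 times the Top2a and 0.328 times the Ly6c2 level. Itgae, an integrin of tissue-resident cells, was detected in 3.88% of these Trbv14 cells and 19.5% of other cells, and Ly6c2 in 10.7% and 43.0%. As means over cells the ratios were 0.0705 for Itgae, 0.375 for Top2a and 0.20 for Ly6c2.

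**Figure D5:**
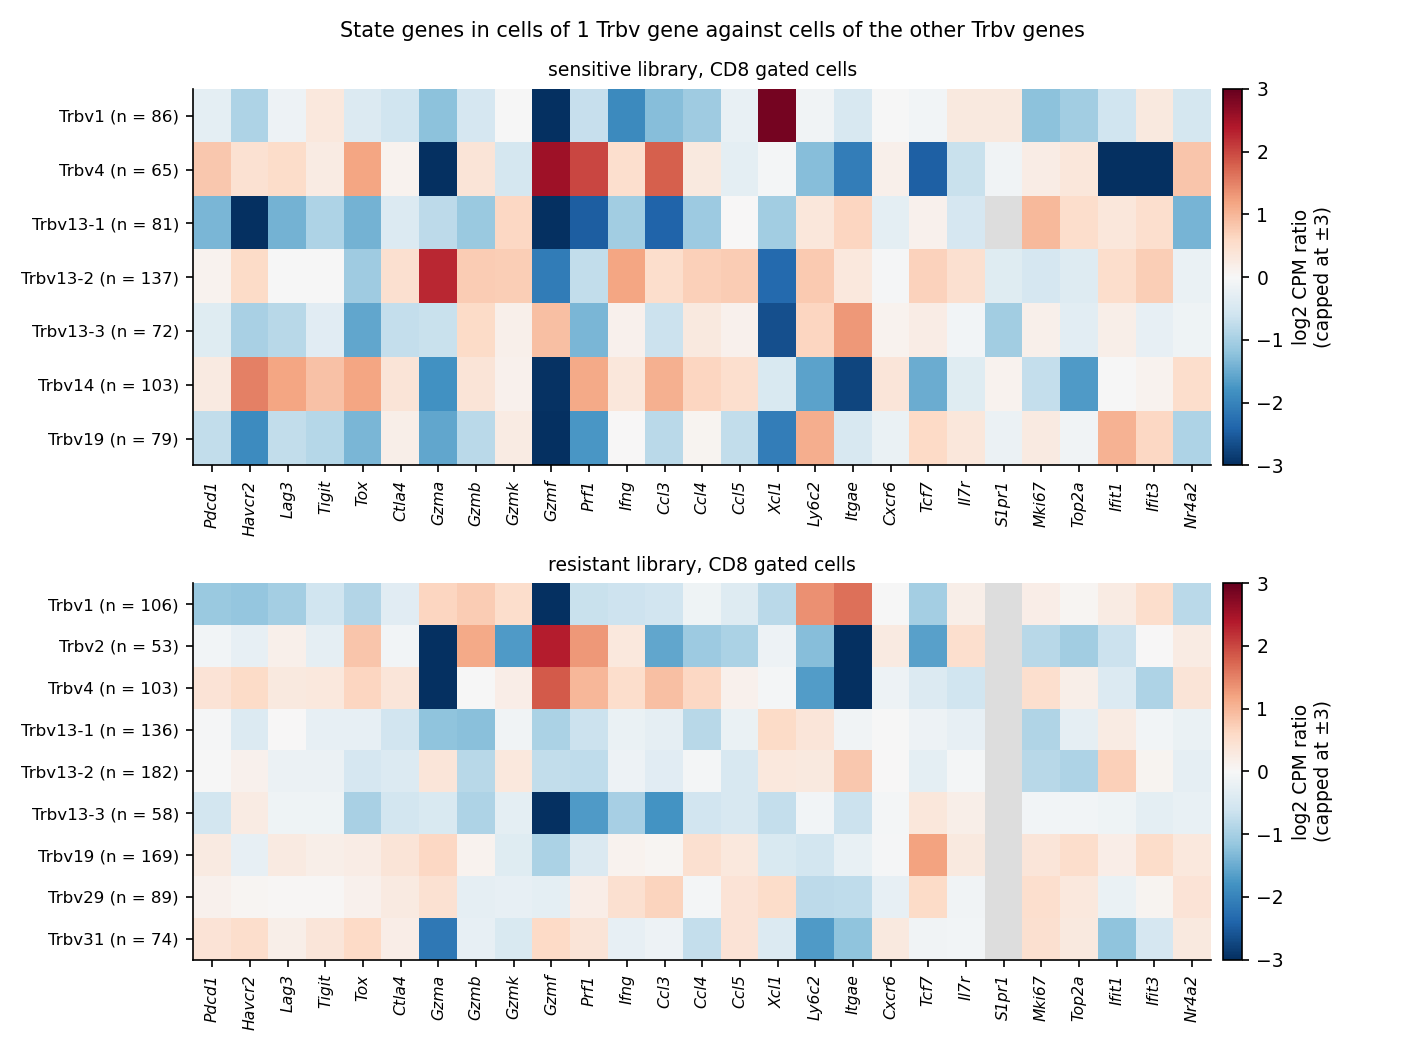
Level of 27 state genes in CD8 cells of each Trbv gene relative to other called CD8 cells of the same library, as log2 of the ratio of summed CPM with colors capped at 3 in either direction and gray for under 20 UMIs. Gzmf and Gzma span the widest range, with the Gzmf level of Trbv4 cells at 5.81 and 3.57 times, carried by few cells, and Gzma low there (0.0447 and 0.0420 times).

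Residency, memory and interferon-response genes varied too. Itgae was 3.16 times as high in Trbv1 cells of the resistant library (detected in 29.2% against 10.7% of other cells) and 2.46 times in Trbv13-3 cells of the sensitive library. It was at 0.436 times in Trbv31 cells of the resistant library, at 0.0582 [0.00147–0.327] in Trbv2 cells with 1 UMI and at 0.0561 [0.00677–0.205] in Trbv4 cells with 2 UMIs. Ly6c2 was 2.58 times as high in Trbv1 cells of the resistant library, and at 0.309 and 0.313 times in its Trbv31 and Trbv4 cells. As a mean over cells the Ly6c2 ratio of these Trbv4 cells was 0.184. Tcf7, a factor of memory-like cells, was 2.33 times as high in Trbv19 cells of the resistant library, and was at 0.182 [0.0370–0.545] in Trbv4 cells of the sensitive library and 0.324 [0.0387–1.20] in Trbv2 cells of the resistant library, with 3 and 2 UMIs. Ifit1, an interferon-induced gene, was at 0.113 times in Trbv4 cells from sensitive and 0.432 times in Trbv31 cells from resistant tumors, and Ifit3 at 0.0839 [0.0172–0.248] in the former with 3 UMIs.

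Of the 91 ratios past 2-fold over both libraries, 16 were under it when the Trbv gene whose cells had the highest level was left out of the other cells, an alternative chosen after seeing the data, and 11 when means over cells were used. Among those named, the first were Gzma in Trbv1 and Trbv19, Ccl3 in Trbv1, Tox in Trbv13-2 and Prf1 in Trbv13-3 cells of the sensitive library and Itgae in Trbv31 cells of the resistant library. S1pr1 in Trbv13-3 cells was among them too. The second were Ccl3 in Trbv4 cells of the sensitive library and Gzma and Gzmb in Trbv13-1, Itgae in Trbv31 and Tcf7 in Trbv19 cells of the resistant library.

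S1pr1, which lets T cells leave tissue, was at 0.484 [0.0117–2.98] times in Trbv13-3 cells of the sensitive library, on 1 UMI. Cells of one Trbv gene may be few clones of few mice, so these ratios describe the pooled cells of each library and not the Trbv gene in general.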

How the data were processed

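Droplet single-cell RNA sequencing (10x Genomics Chromium 3′ kit v3) was performed on T cells of sensitive and resistant tumors. The authors aligned reads to mm10 with Cell Ranger (6.0.0 per the file headers) and deposited UMI counts per gene and barcode, without normalization. Genes annotated by GENCODE M21 supplied positions and sequences. Barcodes with at least 500 genes, at most 10% mitochondrial UMIs and a Cd3 UMI were kept, and no doublets were removed. Cells without a Trbv UMI have no call.

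Shares were given Clopper-Pearson intervals and, where each count was at least 10, ratios of shares a log-scale interval. UMI ratios had exact conditional binomial intervals. With 1 library per group no test was made, and a 2-fold difference was used in its place (Python 3.11.15, numpy 2.4.6, scipy 1.17.1, pandas 2.3.3, scanpy 1.11.5, Biopython 1.88, matplotlib 3.10.9). Share ratios after thinning and UMI ratios were tested on simulated counts in which all cells of a library had the same expression profile. The Trbv call, usage and genes carried by few cells were not simulated. Every gene with at least 2% usage and the 5 superantigen-list genes were named. State genes were named where at least 2-fold apart with at least 20 UMIs in the larger group, at most 5 per Trbv gene, to which 5 genes of Trbv14 and 3 of Trbv4 cells were added after their values were seen. A listed state gene is not reported here. Members and lists were chosen with earlier results of these data known. Alternatives changed the gates, filters, doublets, thinning, merging of close copies, scaling and the call of a cell's gene.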

Additional observations from a re-analysis of the deposited data

How the results depend on the processing

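Of the main values under their alternatives, 118 stayed within counting error or 1.5 times, 18 moved and 1 reversed. Of the values of single genes 574 stayed, 66 moved and 0 reversed. Only a ratio whose main interval left out 1 could count as reversed, so usage ratios without an interval could not. Of these, the Trbv12-1 ratio (main value 2.16) ran from 0.326 to 2.20, and that of Trbv15 (0.539) from 0.467 to 3.10. In CD8 cells the Trbv5 ratio, whose interval included 1, ran from 0.233 to 3.89. The cause of changes was not tested except where depth or the construction shows it. Without thinning, the ratio of cells with any Trbv gene was 0.945 (1.09 with it) and cells with more than 1 gene 21.5% and 20.3%; after thinning, cells with at least 2 UMIs of each of 2 genes were 0.475% and 0.0964% (5.22% and 3.86% with 1 UMI of each). Thinning before the call gave usage distances of 20.4% in all and 27.6% in CD8 cells, superantigen-list shares of 5.70% and 3.08% and an inverse Simpson index of 9.04 in the resistant library. Counting a cell under each of its genes gave list shares of 14.3% and 10.8% and an index of 10.4 in the resistant library. The index was 5.56 and 5.34 with close copies merged and 9.98 and 8.61 with at least 2 UMIs of the gene. The summed Trbv ratio was 1.31 per Trbc UMI and 1.18 relative to the median gene. Over 13 alternatives the count of genes 2-fold apart was 2 to 3, the Trbv14 ratio 2.51 to 3.27, the Trbv16 ratio 2.64 to 6.84, the Trbv19 ratio 0.574 to 0.722 and the Trbv31 ratio 0.533 to 0.772. Leaving out cells with Trdc or collagen UMIs, or the highest Trbv gene from the state gene comparison, was chosen after seeing the data. No paired analysis was possible because each group had 1 library. Depth limits the detection of genes with few UMIs per cell, and leaving out a replicate was not possible.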
